A study of Homo sapiens with 20 samples.

Results

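YAP1 and TFE3 are the 2 genes joined in the YAP-TFE3 fusion of epithelioid hemangioendothelioma, and the accessible chromatin at both genes was examined in cells that carried extra copies of them in retroviral vectors. The members were all deposited peaks that overlapped 1 of 2 fixed windows, of 145001 bp on chromosome 11 around YAP1 and of 35001 bp on chromosome X around TFE3. Coordinates are those of hg19 (GRCh37), counted from 1. Overlapping peaks were merged into sites, which gave 41 sites at YAP1 and 9 at TFE3, or 50 of the 372133 sites of the whole series.

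YAP is a transcriptional coactivator held in check by the Hippo kinase cascade, and it reaches DNA through TEAD transcription factors. TFE3 is a basic helix-loop-helix leucine zipper factor of the MiT family, known for its role in lysosome biogenesis and for taking part in gene fusions of several tumors. In the fusion, the first exon of YAP1, which encodes the TEAD-binding domain, is followed by exon 4 and later exons of TFE3, according to the methods and text of the study. A vector cDNA has no introns, so sequencing fragments that come from it can align to the exons it carries.

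ATAC-seq, in which a transposase cuts accessible DNA, was performed on SW872, an established human liposarcoma cell line, in 20 libraries. Pooled stable lines were made by retroviral transduction with pBabeNeo and G418 selection, and carried the empty vector (EV), TAZ4SA and YAP5SA (full-length TAZ and YAP with 4 and 5 serines changed to alanine), CAMTA1 and TFE3 (full length), TAZ-CAMTA1, or YAP-TFE3. The constructs were Flag-tagged. The titles of the YAP-TFE3 libraries name YAP5SA as the YAP part. Each vector had 3 libraries except TFE3, which had 2, and the third EV library is titled a redo. The deposited data hold 1 peak list per vector, which leaves every value without a replicate error. No test could be run, and read depth is unknown. Markers of the cell line were not checked, since genes were not placed on the peaks. Vectors with YAP1 sequence were YAP5SA and YAP-TFE3, and those with TFE3 sequence were TFE3 and YAP-TFE3.

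The reference coding sequences show what the fusion keeps of each gene. They come from the GENCODE 44 transcripts (GRCh38), not from the vectors, whose own sequences were not analysed here. In that annotation YAP1 has 9 exons and 1512 coding bases, of which exon 1 holds 321, or 21.2%. TFE3 has 10 exons and 1725 coding bases, and exon 4 onward holds 1191, or 69%. Both borders fall between codons, after 107 codons of YAP1 and with 0 bases left over on the TFE3 side. The 30 coding bases on each side of the borders are printed because they mark where each gene is cut, with bases from exon 4 of TFE3 in capitals.
YAP1 exon 1 to exon 2: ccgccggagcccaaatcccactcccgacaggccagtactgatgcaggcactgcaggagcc
TFE3 exon 3 to exon 4: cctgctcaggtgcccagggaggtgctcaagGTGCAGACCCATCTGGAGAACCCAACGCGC
YAP1 exon 1 to TFE3 exon 4: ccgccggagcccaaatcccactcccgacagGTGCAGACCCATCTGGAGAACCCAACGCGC

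At TFE3, 5 of 9 sites (55.6%) had a peak in the TFE3 or YAP-TFE3 list and in none of the 5 lists whose vectors lack TFE3. Over the whole series, 8.64% of sites had this pattern. These 5 sites followed each other along the gene, and the 5 other lists had no peak over 38071 bp of chromosome X that enclosed them. In the orientation of the gene they lay between 1.99 and 11.2 kb downstream of its widest site. The peaks were small beside the widest site of the window: the area under the curve of the peak caller's statistic, the signal value the authors deposited, lay between 42.1 and 370 in the lists with a peak at these sites and between 3291 and 12126 over the 7 lists at the widest site.

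**Figure D1:**
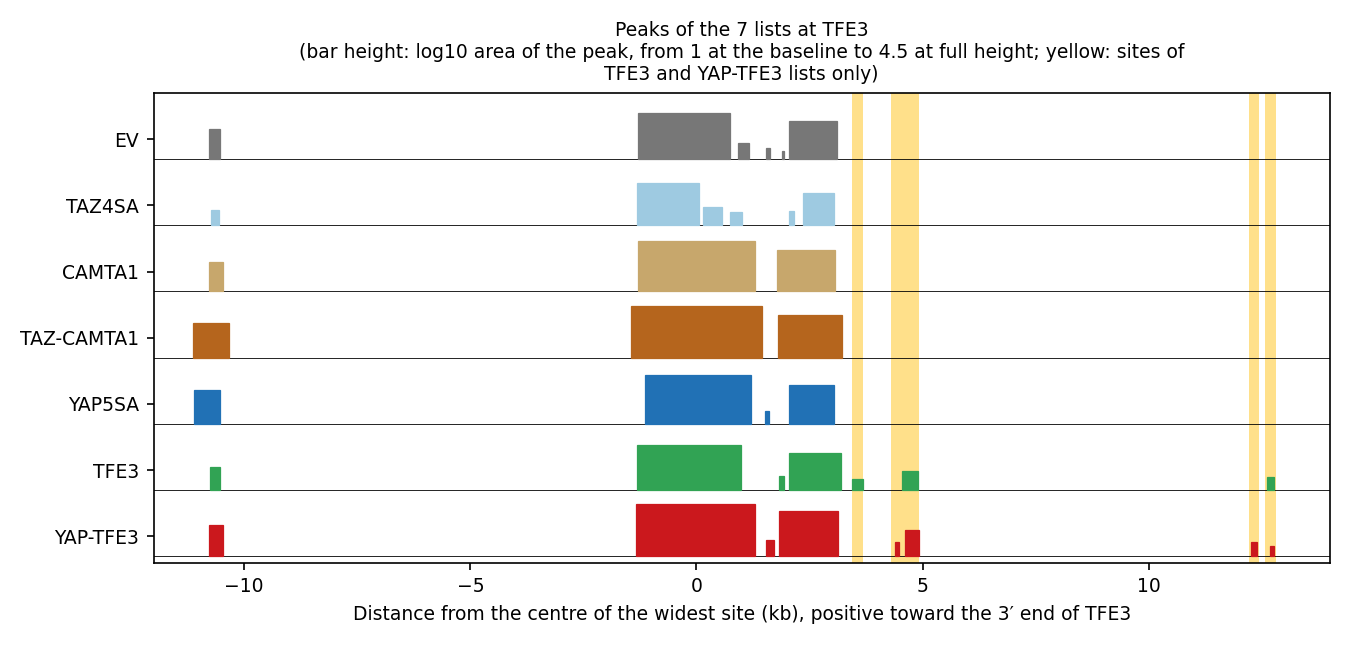
Peaks of the 7 lists at TFE3, drawn against the distance in kb from the centre of the widest site, positive toward the 3′ end of the gene. Bar height is the log10 of the deposited area and yellow bands, drawn wider than the narrowest peaks, mark the 5 sites of the TFE3 and YAP-TFE3 lists only. The 3 sites shared by all lists lie to the left of the bands, and the bands hold bars of the TFE3 (green) and YAP-TFE3 (red) lists only.

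The strongest of these sites was chrX:48895485-48895841. The TFE3 list had an area of 139 and a summit −log10 p of 4.20 there, and the YAP-TFE3 list an area of 370 and a summit −log10 p of 6.13. The area in the fusion list was 2.65 times that in the TFE3 list, where the median of this ratio was 1.73 over the sites of these 2 lists only and 2.28 over sites present in all 7 lists. The 2 peaks began 1 bp apart and ended 49 bp apart, and their summits were 34 bp apart. Among 619 sites of this kind with 1 peak in each of the 2 lists, 5.01% began within 1 bp. The median differences over them were 20 bp for the start, 19 bp for the end and 21 bp for the summit. By end and summit the 2 peaks thus lay further apart than the median.

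A total of 620 sites in the series were held by the TFE3 and YAP-TFE3 lists and by no other list, which is 0.167% of all sites. Ranked by the smaller of its 2 areas, the site at chrX:48895485-48895841 was number 1 of these 620, with 139 against 120 for the next and a median of 29.2. It follows from this rank that no other of the 620 was as large in both lists. The site stood lower by other measures: by the smaller summit −log10 p the site was number 37, and by the smaller area per bp number 167. Its larger peak, that of the fusion list, was within the top 0.737% of the 32167 sites by area and within the top 0.606% by summit −log10 p.

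**Figure D2:**
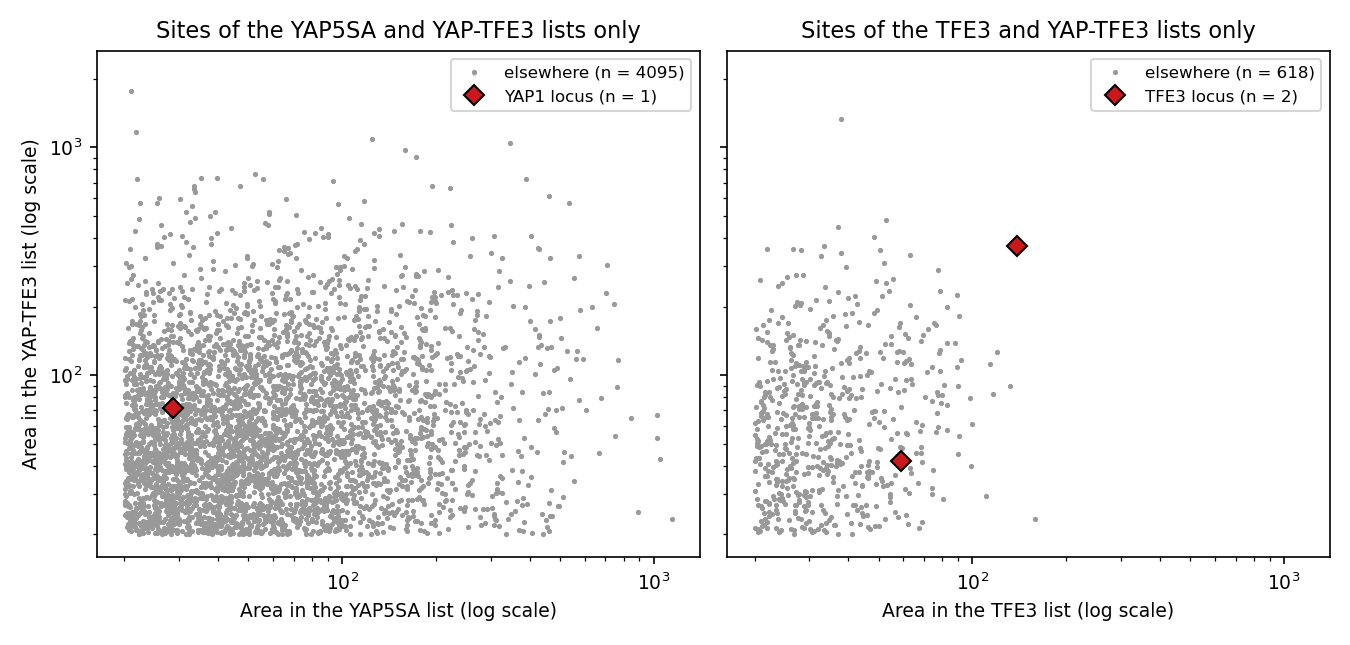
Area in the full-length list (x axis) against area in the YAP-TFE3 list (y axis), both on log scales, for every site held by those 2 lists only. The left panel shows YAP5SA with YAP-TFE3 (4096 sites) and the right panel TFE3 with YAP-TFE3 (620 sites), with sites at the construct gene as red diamonds. In the right panel 1 of the 2 diamonds stands apart at the upper right, and in the left panel the single diamond lies within the cloud.

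The other 4 sites of this pattern at TFE3 were weaker. The site chrX:48887619-48887782 was held by both lists, with an area of 59.0 in the TFE3 list and 42.1 in the YAP-TFE3 list. It was number 125 of the 620 by the smaller area. Its 2 peaks began 18 bp apart and ended 64 bp apart, with summits 4 bp apart, where the medians were 20, 19 and 21 bp. The site chrX:48888009-48888126 had a peak of the YAP-TFE3 list alone, with an area of 70.0, and so had chrX:48895922-48896010, with 68.3. The site chrX:48896710-48896950 had a peak of the TFE3 list alone, with an area of 44.6 and a summit −log10 p of 3.82. Its distance to the nearest peak of a list without TFE3 sequence was 224 bp, against 1164 bp or more for the 4 others. The median area of the 5 sites was 68.3 and the median over all 32167 sites of the pattern was 41.1.

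The question of which part of TFE3 each vector carries was addressed by the order of the sites along the gene. TFE3 lies on the minus strand, so the highest coordinates are nearest to its 5′ end. The most 5′ of the 5 sites, chrX:48896710-48896950, was the one held by the full-length TFE3 list and not by the fusion list. The 4 sites downstream of it all had a peak of the YAP-TFE3 list, and 2 of them also had a peak of the TFE3 list. When a peak of another list within 500 bp counted as present, the upstream site was lost and 0 sites of the TFE3 list alone remained. With equal numbers of peaks per list, 2 sites of the TFE3 list alone remained, and 1 of them was the most 3′ site, chrX:48887619-48887782. With a minimum summit −log10 p of 4 the upstream site was lost, and this 3′ site was the only 1 of the TFE3 list alone. The order thus did not hold under these settings. With 1 list for each vector and 1 weak site in the upstream position, this order is a description and was not tested.

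The 5 sites fell into 2 groups separated by 7358 bp without a peak in any list. The upstream group of 3 sites spanned 1466 bp and the downstream group of 2 sites spanned 508 bp. No annotation of hg19 was used, so the sites were not placed on exons. Lengths within the gene model of GRCh38 are given for comparison only, and this comparison was not planned. There, exons 3 to 5 of TFE3 with their introns span 1401 bp, the distance from exon 5 to exon 10 is 7408 bp, and exon 10 holds 441 coding bases. The coding exons in between, 6 to 9, are short, from 57 to 148 bp. In gene order the 3 upstream sites were 241, 89 and 357 bp wide. Exons 3, 4 and 5 are 304, 246 and 105 bp long. Whether any site lies on an exon was not tested.

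At YAP1 the picture was different. A total of 10 of 41 sites (24.4%) had a peak in the YAP5SA or YAP-TFE3 list and in none of the 5 lists whose vectors lack YAP1, where 19.7% of all sites in the series had this pattern. The share at the gene was thus near that of the series. Of the 10 sites, 3 were held by the YAP5SA list alone, 6 by the YAP-TFE3 list alone and 1 by both, a pattern of 1.1% of all sites. When the same number of peaks, 152702, was taken from every list, 2 YAP1 sites of the pattern were left of 10, and 4 TFE3 sites of 5. The full lists held 230886 peaks for YAP5SA, 235795 for YAP-TFE3 and 156421 for TFE3. This setting therefore cut the lists of the 2 patterns unequally, and the 2 counts cannot be compared between the genes. Sites in a single list were also found for vectors without YAP1: TAZ-CAMTA1 alone held 6, CAMTA1 alone 5 and TAZ4SA alone 2, while EV and TFE3 held 0. Over the series 42.3% of sites were in 1 list. A series share for each list alone is not given here, so these single-list counts are a description only. A site of 2 lists that do not share YAP1 sequence, chr11:102047941-102048559, was chosen after its values were seen. Its area was 37.9 for TFE3 and 342 for YAP-TFE3, and YAP5SA had no peak there.

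**Figure D3:**
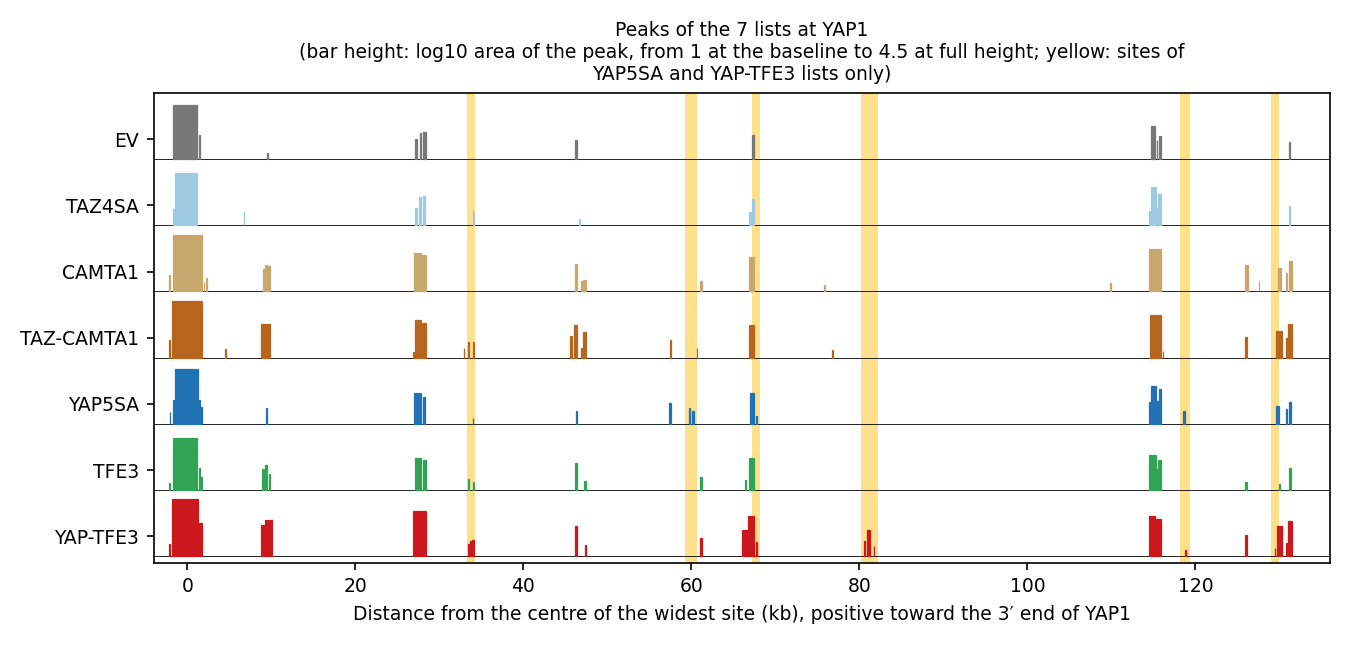
Peaks of the 7 lists at YAP1, drawn against the distance in kb from the centre of the widest site, positive toward the 3′ end of the gene. Bar height is the log10 of the deposited area and yellow bands, drawn wider than the peaks for visibility, mark the 10 sites of the YAP5SA and YAP-TFE3 lists only. The bars at the widest site, at 0, are the tallest in every list. Because of the added width, some bands also cover neighbouring peaks of other lists.

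The site of both lists, chr11:102049525-102049704, had an area of 28.7 in the YAP5SA list and 71.7 in the YAP-TFE3 list. By the smaller area it was number 2709 of the 4096 sites held by these 2 lists only, below their median of 35.6. It lay 159 bp from the nearest peak of a list without YAP1 sequence. The 3 sites of the YAP5SA list alone were also weak. The site chr11:102041626-102041724 had an area of 79.2, the site chr11:102041945-102042144 an area of 52.8, and the site chr11:102100439-102100661 an area of 53.0. The vector of this list holds the full-length YAP coding sequence, and the largest area among its sites of the pattern was 79.2.

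The strongest of the 10 sites belonged to the fusion list alone. At chr11:102062782-102063175 the YAP-TFE3 list had an area of 327 and a summit −log10 p of 5.55, which placed it in the top 1.85% of the 73363 sites of the pattern by area and in the top 12.5% by area per bp. It stood between chr11:102062486-102062601, with an area of 80.5, and chr11:102063579-102063678, with 37.5, and the 3 sites together spanned 1193 bp. They lay 78.8 to 79.9 kb downstream of the widest site of the gene, and the nearest peak of the 5 lists without YAP1 was 3793 bp away. Of YAP1 the fusion holds exon 1 only, with 321 coding bases in the gene model. These 3 sites were not placed on exons, and their source was not tested. Runs of 3 or more sites of the YAP1 pattern in a row made up 7.22% of the 53803 runs in the series and held 18.9% of its sites. For the TFE3 pattern, runs of 5 or more, as at TFE3, made up 0.430% of 26735 and held 2.05% of its sites. The lengths of 3 and 5 differ, so these shares cannot be compared between the genes.

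The remaining 3 sites were held by the YAP-TFE3 list alone. Their areas were 78.8 at chr11:102015596-102015685, 31.8 at chr11:102111317-102111415 and 23.3 at chr11:102100666-102100721. The last of these began 4 bp beyond the end of the YAP5SA site chr11:102100439-102100661. Over the 10 sites the median area was 62.3, with 7 above the median of 42.9 over all sites of the pattern.

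Exon 1 of YAP1 is in both YAP1 vectors and is the part that the fusion keeps. The widest site of the window, chr11:101980121-101983648, was present in all 7 lists. It was not placed on exon 1, and fragments from a vector could not be told apart there from those of the gene itself. Its area was 15997 in the EV list and 11679 in the TAZ4SA list. CAMTA1 had 20033 and TAZ-CAMTA1 20607. YAP5SA had 17673, TFE3 11555 and YAP-TFE3 25239. The lists with YAP1 sequence thus held the highest value and the fourth highest. The YAP-TFE3 area was 1.58 times that of EV, lower than the median ratio of 2.45 over the 60372 sites in all 7 lists, and the YAP5SA area was 1.10 times that of EV, where the median ratio was 1.32. The summits did not separate the vectors with YAP1: the YAP-TFE3 summit lay 24 bp from that of EV, and the YAP5SA summit was at the same base as those of TAZ4SA and CAMTA1.

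The widest site at TFE3, chrX:48898940-48901848, was present in all 7 lists as well. Its area was 5418 in the EV list, 3291 in the TAZ4SA list and 9299 in the CAMTA1 list. TAZ-CAMTA1 had 10113, YAP5SA 7094, TFE3 4373 and YAP-TFE3 12126. The full-length TFE3 list therefore had the second lowest area, at 0.807 times that of EV. The fusion list was at 2.24 times EV, below the median of 2.45. A second broad site downstream, chrX:48897175-48898604, gave ratios to EV of 0.872 for TFE3 and 2.38 for YAP-TFE3, where the medians were 1.07 and 2.45. The third, chrX:48910727-48911526, lies on the other side of the widest site and crosses the end of the window. Its areas ranged from 78.5 in the TAZ4SA list to 1186 in the YAP-TFE3 list, with 302 in the TFE3 list and 747 in the EV list.

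Of the 3 TFE3 sites in all 7 lists, 2 had an area in the YAP-TFE3 list at least 2 times that of EV, and over the whole series 66% of such sites did. The TFE3 list had 0 such sites against a background of 16.6%, and 1 site at most 0.5 times EV against 6.01%. None of the 4 vectors without TFE3 sequence other than EV reached 2 times EV at any of the 3 sites. The shares of such sites over the series were 64.4% for TAZ-CAMTA1, 52.5% for CAMTA1, 30.7% for YAP5SA and 11% for TAZ4SA. For every vector, that of the fusion included, the ratio to EV lay below its series median at all 3 sites. TAZ4SA was at most 0.5 times EV at 2 of them, against 36.5%. TAZ4SA had the smallest area at all 3, as it had at 64.7% of sites in all 7 lists. The remaining TFE3 site, chrX:48898687-48898885, had a peak of 3 lists, with areas of 45.1 in EV, 57.9 in YAP5SA and 93.5 in YAP-TFE3.

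The 4 other YAP1 sites present in all 7 lists lay 25.1 to 129 kb downstream of the widest one. At all 5 such sites the YAP-TFE3 list had the largest area of the 7, which it had at 47.1% of sites in all 7 lists. The EV list had the smallest area at 4 of the 5, against 19.3% in the series. For YAP-TFE3, 4 of the 5 were at least 2 times EV, against a background of 66%, and for YAP5SA 3 of the 5, against 30.7%. Vectors without YAP1 sequence gave such counts too, with 4 of the 5 for CAMTA1 (background 52.5%) and 4 of the 5 for TAZ-CAMTA1 (64.4%). TAZ4SA had 1 (11%) and TFE3 had 1 (16.6%). All 5 TAZ4SA ratios were above their median of 0.639 over sites in all 7 lists.

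**Figure D4:**
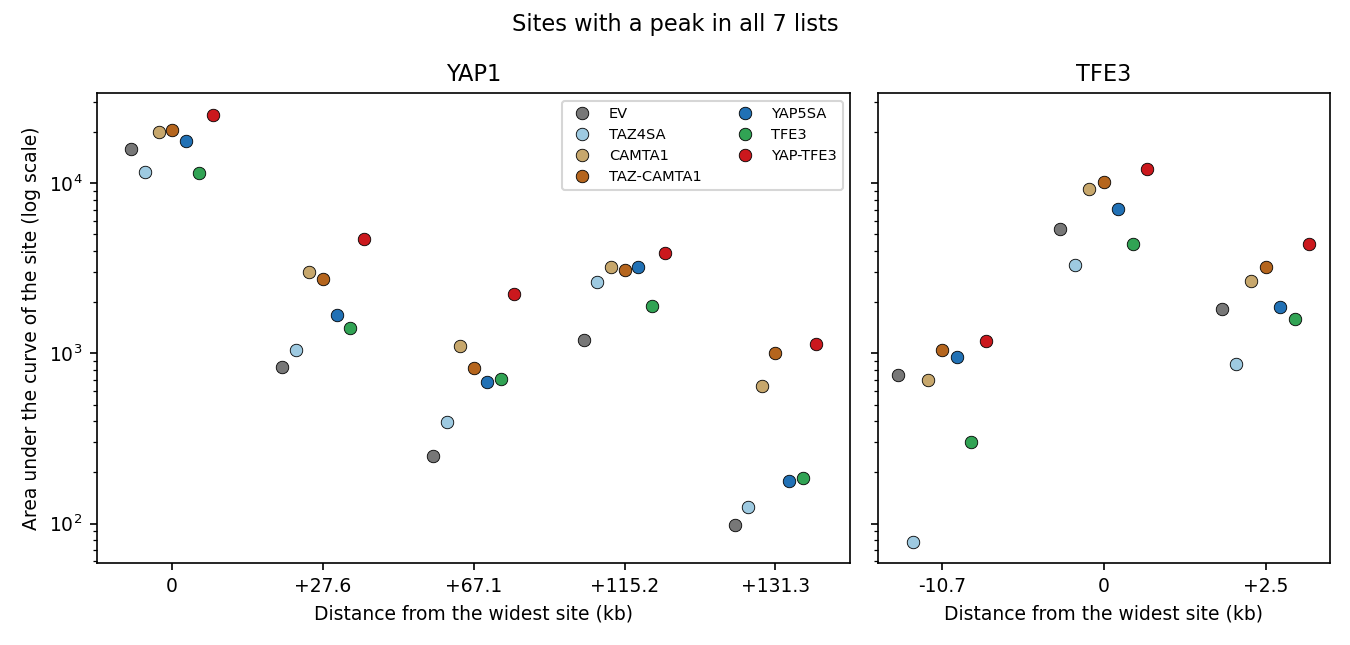
Area under the curve (log scale) in each list at the sites with a peak in all 7 lists, 5 at YAP1 and 3 at TFE3, ordered by the distance of their centre from that of the widest site in kb. Points are single lists with no error. The red YAP-TFE3 point is the highest at each of the 8 sites, and the spread among lists is smallest at the widest YAP1 site.

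The site chr11:102096341-102097845 was the second largest in the EV list, with an area of 1202. TAZ4SA had 2611, CAMTA1 3236 and TAZ-CAMTA1 3104. YAP5SA had 3241, the TFE3 list 1893 and the fusion 3890. EV was thus the lowest, and TAZ4SA, at 2.17 times EV, was higher than at 90.1% of the sites in all 7 lists. At chr11:102008709-102010356 the areas were 832 in EV, 1047 in TAZ4SA and 1688 in YAP5SA. TFE3 had 1409, CAMTA1 3005, TAZ-CAMTA1 2721 and the fusion 4703. The fusion was 5.65 times EV by area and 2.90 times by area per bp, its peaks having covered 1648 bp against 847 bp in EV. The medians of these 2 ratios over sites in all 7 lists were 2.45 and 1.85.

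At chr11:102048668-102049399 the area was 251 in the EV list, 393 in the TAZ4SA list and 2248 in the YAP-TFE3 list. YAP5SA had 683, TFE3 712, TAZ-CAMTA1 824 and CAMTA1 1104. The ratio of the fusion to EV was 8.96 by area, above that of 92.2% of the sites in all 7 lists, and 3.16 by area per bp. The ratio of TFE3 to EV, 2.84, exceeded that of 91.1% of them. By area per bp the TFE3 ratio was 1.11, near its median of 0.995. Here the values of both full-length lists, YAP5SA and TFE3, lay close together and below that of the fusion.

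The fifth, chr11:102112864-102113417, was chosen after its values were seen. Its areas were 98.3 in EV, 125 in TAZ4SA, 179 in YAP5SA and 186 in TFE3. CAMTA1 had 647, TAZ-CAMTA1 1002 and YAP-TFE3 1139. The lists therefore fell into 4 low and 3 high values, and the high ones were those of CAMTA1 and the 2 fusions. Relative to EV the ratio was 11.6 for YAP-TFE3 (3.85 by area per bp), 10.2 for TAZ-CAMTA1, 6.58 for CAMTA1, 1.82 for YAP5SA and 1.90 for TFE3. Over sites in all 7 lists the median ratios were 2.45, 2.40, 2.07, 1.32 and 1.07 in the same order. The 3 lists with high values here thus also had the highest medians over the series.

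Another site chosen after its values were seen, chr11:101990680-101991994, showed a like order. It had no TAZ4SA peak. The area was 22.6 in the EV list, 88.3 in the YAP5SA list and 547 in the TFE3 list. CAMTA1 had 851, TAZ-CAMTA1 958 and YAP-TFE3 2016. The site chr11:102027913-102028280 also lacked a TAZ4SA peak. Its areas were 134 in EV, 55.8 in YAP5SA, 397 in TFE3, 406 in CAMTA1, 611 in YAP-TFE3 and 789 in TAZ-CAMTA1. YAP5SA was thus above EV at the former site and below it at the latter, and had the second lowest and the lowest area of the 6 lists.

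The largest area among the remaining YAP1 sites was 594, in the YAP-TFE3 list at chr11:102111542-102112207, a site named after its values were seen. Of the 41 sites, 5 were in all 7 lists, 14 in 2 to 6 lists and 22 in 1 list. Single-list sites were thus 53.7% of those at YAP1, against 42.3% in the series. EV had a peak at 7 of the 41 sites (17.1%, against 34.0% of all sites in the series) and TAZ4SA at 8 (19.5%, against 111641 of the 372133). TFE3 had one at 15 (36.6% against 31.04%) and YAP5SA at 16 (39.0% against 48.8%). CAMTA1 had one at 19 (46.3% against 48.9%), TAZ-CAMTA1 at 22 (53.7% against 57.0%) and YAP-TFE3 at 23 (56.1% against 53.8%). The EV and TAZ4SA shares were thus the furthest below those of the series. The number of peaks ran from 12 for EV to 26 for YAP-TFE3, with 24 for YAP5SA and for TAZ-CAMTA1. TAZ4SA had 15, and CAMTA1 and TFE3 had 22 each. With equal numbers of peaks per list, TFE3 had 21 and YAP5SA 16. YAP-TFE3, TAZ-CAMTA1, CAMTA1 and TAZ4SA then had 15 each, and EV 11. The 500 kb on either side of the YAP1 window held 117 peaks of YAP-TFE3 and 103 of YAP5SA. The other lists had from 63 (EV) to 97 (CAMTA1) there. At TFE3 the numbers of peaks were 3 for CAMTA1 and for TAZ-CAMTA1, 4 for YAP5SA and 6 for EV and for TAZ4SA. They were 7 for the TFE3 list and 8 for the YAP-TFE3 list. This order depended on the peaks taken: with equal numbers of peaks per list YAP-TFE3 had 6, as many as EV and TAZ4SA, and with a minimum summit −log10 p of 4 the TFE3 list had 6, as many as TAZ4SA. In the 500 kb on either side of the TFE3 window, EV and TAZ4SA had 71 peaks each, TFE3 83, YAP5SA 92, CAMTA1 106, TAZ-CAMTA1 108 and YAP-TFE3 124. The YAP-TFE3 list thus had the most peaks in the flanks as well as in the window.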

How the data were processed

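The 20 libraries were grouped by vector from their titles, and the deposited data used were 7 peak lists, 1 per vector. According to the methods, the authors trimmed reads with NGmerge, aligned them with BWA-MEM and used Genrich (ATAC-seq mode) as peak caller after removal of PCR duplicates and blacklisted regions. The methods state calling on each replicate, and how libraries were combined into a list is not given in the sources used here. The submitters' processing notes name Bowtie and the mouse build mm8, whereas the lists use human chromosome names and the methods hg19, which was taken as the build.

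The signal of a peak, as deposited, is an area under the −log10 p curve along the peak, which grows with width and height. The −log10 p of the summit was also deposited by the authors. The deposited score, and the −log10 q, were not used. Read depth is unknown.

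Peaks that shared 1 bp or more were merged into sites with Python 3.11.15 and pandas 2.3.3, and the area of a list at a site is the sum over its peaks. The merging was tested on simulated lists and against bedtools 2.31.1. A site counted for a gene's vectors only if none of the 5 lists without that gene had a peak in it. Areas were not scaled between lists. Ratios to EV are therefore to be read against their median over sites in all 7 lists. These medians were 2.45 for YAP-TFE3, 2.40 for TAZ-CAMTA1, 2.07 for CAMTA1, 1.32 for YAP5SA, 1.07 for TFE3 and 0.639 for TAZ4SA. Flanks were 500 kb on either side. No test was run, since each vector has 1 list. The named sites are all 15 sites of these patterns and, at each locus, the 5 other sites with the largest area in the EV list (4 existed at TFE3). The 4 further YAP1 sites named were chosen after their values were seen, as said beside each. The windows, members and rules were chosen with earlier results of these data known. Alternatives are given in the closing section. Overlap with exons, and comparison with WWTR1, CAMTA1, TEAD1 to TEAD4, TFEB, TFEC and MITF, needed an annotation of hg19 and were not run. Coordinates were not converted between builds.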

Additional observations from a re-analysis of the deposited data

How the results depend on the processing

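The count of TFE3 sites of the TFE3 and YAP-TFE3 lists only was 5, and 4 to 6 under the alternatives run. The corresponding YAP1 count was 10, and it was 10 without use of the EV list (chosen after seeing the data), 2 with equal numbers of peaks from every list (152702, ranked by summit −log10 p) and 6 when a peak within 500 bp counted as present. With equal numbers, the YAP1 sites of the full-length list alone, the fusion list alone and both lists were 1, 1 and 0, and the TFE3 sites 2, 1 and 1. The YAP1 peaks of TAZ-CAMTA1 and YAP-TFE3 were then 15 and 15. With a minimum summit −log10 p of 4, the sites of both lists numbered 0 at YAP1 and 1 at TFE3. Joining peaks within 100 bp gave 2 sites of both lists at YAP1 and 1 of the fusion alone at TFE3. An overlap of 50% of both peaks gave 10 of the fusion alone at YAP1 and 2 of the full-length list alone at TFE3. With 500 bp, YAP1 had 0 sites of both lists and TFE3 had 0 of the full-length list alone, which removes the site in the upstream position. By summit −log10 p the strongest YAP1 site was in the top 3.67%, and by area per bp the strongest sites were in the top 12.5% (YAP1) and 2.26% (TFE3). The ranks of the sites of both lists became 37 and 167 at chrX:48895485, 219 and 221 at chrX:48887619, and 1193 by summit −log10 p at chr11:102049525. The median ratio of YAP-TFE3 to EV at YAP1, 5.65, was 2.90 by area per bp. The cause of these changes was not tested. Among counts, ranks, shares and medians, 27 values moved and 77 stayed within 1.5 times. Among ratios at single sites, 4 moved and 12 stayed. No paired analysis was possible because each vector has a single list, and leaving out single libraries was not run for the same reason. Unknown read depth limits every comparison of areas and of list length.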
